A study of Mus musculus with 182 samples.

Results

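Germinal centre B cells that expressed IgM were split by whether they also carried Ighd RNA, the transcript of the IgD heavy chain. The cells were selected on their values for 8 heavy chain constant genes. An IgM cell had a sum of at least 10 over these genes, with Ighm making up over 50% of it. It was placed on the side with Ighd at an Ighd value of 1 or more, and on the side without Ighd below that. Of 182 single cells, 123 were IgM cells, of which 37 had Ighd and 86 did not. The values of Ighm, Ighd and the switched constant genes chose the cells, so they are given as a description and support nothing.

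All cells came from the spleen of C57BL/6 mice on day 13 after an intraperitoneal injection of 100 μg NP(23)-KLH, a hapten on a carrier protein, in 50% alum with 1 μg LPS. Before sorting, cells that bound antibodies to CD3, CD4, CD8, CD11c or IgD were removed on magnetic columns, so cells with IgD protein on their surface were depleted before capture. The sort took B220+ cells high for Fas and GL7. The labels add NP+, while the series' own description lists NP only among the stains. Both sides belong to the same labelled group and differ by no treatment. The labels name no animal, so all cells were treated as 1 biological sample, cells were not used as replicates, and no p-value is given.

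IgM and IgD are made from the same rearranged variable region. In a naive B cell a long primary transcript runs through the constant exons of Ighm and then Ighd, and the choice of RNA processing decides which heavy chain is made. Zfp318, a nuclear zinc finger protein, is needed in mice for the long transcript to yield IgD. Mature naive B cells carry both receptors, and IgD is known to be lost as B cells enter the germinal centre, the site of B cell division, antibody mutation and selection. Switching to another isotype deletes Ighm and Ighd from the chromosome.

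Ighm lies at chr12:113418558-113422730 and Ighd at chr12:113406604-113416324, both on the minus strand of mm10 in the GENCODE M21 annotation, with 2233 bases between them. The first 90 bases of the constant region transcripts Ighm-202 and Ighd-202 are shown because the split rests on telling these neighbours apart. They are printed 5′ to 3′ on the minus strand, at chr12:113422641-113422730 for Ighm and chr12:113416235-113416324 for Ighd.
Ighm: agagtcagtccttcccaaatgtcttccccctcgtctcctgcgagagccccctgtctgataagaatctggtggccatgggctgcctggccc
Ighd: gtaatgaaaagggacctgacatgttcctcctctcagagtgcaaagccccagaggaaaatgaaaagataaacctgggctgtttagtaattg
Set side by side without gaps, 32 of these 90 bases were equal.

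Values in the deposited table are a normalized signal that is not on a log scale. Columns fell into sets that did not share values, namely cells 1 to 96 and cells 97 to 182, and these sets, seen in the values alone, were treated as batches. IgM cells with Ighd numbered 21 of 65 IgM cells in cells 1 to 96 (32.3%, exact Clopper-Pearson 95% interval 21.2 to 45.1) and 16 of 58 in cells 97 to 182 (27.6%, 16.7 to 40.9). Over both sets the share was 30.1% (22.1 to 39.0). Intervals here and below cover counting error over cells only. The share followed the threshold, with 19.5% of IgM cells at an Ighd value of 5 or more and 50.4% above the lowest value that the gene takes in its set, called its floor here.

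On the side with Ighd, its value had a lowest of 1.02, a median of 16.9 and a highest of 120. On the side without, 61 of 86 cells stood at the floor and 25 lay between the floor and 1. The values nearest the threshold were 1.02 and 1.02 just inside and 0.793 and 0.793 just outside. Ighd stayed a small part of the combined signal even where it was found, at a median of 3.70% of Ighm plus Ighd and at most 26.2%. Among 41 cells in which a switched gene was dominant, Ighd reached 1 in 2 (4.88%, 0.596 to 16.5).

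Ighm overlapped widely between the sides. It had a lowest of 23.7, a median of 353 and a highest of 1980 in cells with Ighd, against 11.1, 275 and 3071 in cells without. The order turned between the sets, with medians of 435 with Ighd and 272 without in cells 1 to 96, and 290 with and 305 without in cells 97 to 182. Across the 123 cells, Spearman's rho between Ighd and Ighm was 0.15, and it was 0.14 and 0.11 within the sets. These cells share a table and its normalization, so the rho is a description only.

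**Figure D1:**
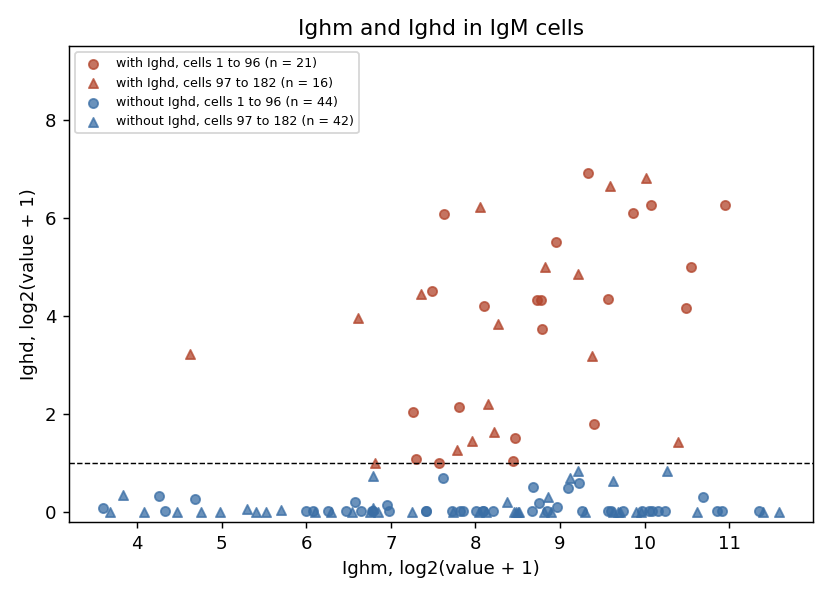
Values of Ighm (x axis) and Ighd (y axis) in each of the 123 IgM cells, both as log2(value + 1), with red for cells with Ighd, blue for cells without, circles for cells 1 to 96 and triangles for cells 97 to 182. The dashed line is an Ighd value of 1, and cells with Ighd lie across most of the Ighm range, with Ighm values between 23.7 and 1980.

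Both sides carried the markers of the sorted population. At least 1 of 7 germinal centre markers (among them Bcl6, S1pr2, Mef2b and Fas) reached a value of 1 in all 37 cells with Ighd and in 77 of 86 without (89.5%, 81.1 to 95.1), and at least 3 did so in 27 of 37 and 66 of 86. Markers of naive or follicular B cells other than Ighd (7 genes, among them Fcer2a, Klf2 and S1pr1) were found as at least 1 in 27 of 37 cells with Ighd (73.0%, 55.9 to 86.2) and 63 of 86 without (73.3%, 62.6 to 82.2). Their summed value ran from 0.0300 to 2758 with Ighd and from 0.0300 to 3205 without, with medians of 26.7 and 7.07. At least 2 were found in 14 of 37 cells with Ighd (37.8%, 22.5 to 55.2) and 24 of 86 without (27.9%, 18.8 to 38.6), and at least 3 in 6 of 37 (16.2%, 6.19 to 32.0) and 7 of 86 (8.14%, 3.34 to 16.1). The summed value of the 7 germinal centre markers ran from 2.76 to 6316 with Ighd and from 0 to 7760 without. Its medians were 93.8 with Ighd and 383 without. The median number of these markers found per cell was 4 on each side. Markers with large values weigh most in the sum, and Mef2b alone had medians of 4.02 with Ighd and 65.7 without. Bcl6 went the other way, with medians of 2.47 and 1.38. Germinal centre markers were thus found on both sides, and the lower median sum with Ighd is no trait of all 7.

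By the short panels of 5 T cell and 5 myeloid markers, markers of other cells were seldom found together in a cell. Fuller lists of these genes, used further below to leave out cells, took out a larger share of cells with Ighd than without. Of 5 T cell markers in the table, Cd3d and Cd4 never reached 1 in an IgM cell, and the summed value had a median of 0.0377 on each side and a highest of 266 with Ighd and 968 without. At least 2 T cell markers were found in 0 of 37 cells with Ighd and 1 of 86 without, and at least 2 of 5 myeloid markers in 1 of 37 and 1 of 86. At least 1 T cell marker was found in 5 of 37 cells with Ighd (13.5%) and 11 of 86 without (12.8%), and at least 1 myeloid marker in 8 of 37 (21.6%) and 11 of 86 (12.8%). The summed myeloid value had a median of 0.156 on each side, with a highest of 501 with Ighd and 166 without. Genes above floor numbered a median of 2373 (lowest 980, highest 3886) in cells with Ighd and 2451.5 (1454 to 4495) in cells without. The depth in reads is unknown.

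All other genes were then compared between the sides. Of 17034 gene symbols, 5402 reached a value of 1 in at least 10% of IgM cells and were compared by the difference in mean log2(value + 1), cells with Ighd minus cells without. A gene was called higher or lower with Ighd when this difference was at least 1 over all IgM cells and at least 0.5 in the same direction within each column set. By this rule 110 genes were higher with Ighd, which is 2.04% of those compared, and 103 were lower, which is 1.91%. With the condition over all IgM cells alone the shares were 2.39% and 2.33%. Among the 655 genes found in at least 50% of IgM cells the shares were 6.56% and 7.18%. The median difference of all genes compared was -0.01.

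This rule is one of size and has no error rate. For all 24 leading genes named below, the ranges of the sides overlapped, and the difference was smaller than the SD over cells on at least 1 side. No chance level is given for it, and a single gene past the rule cannot be told from the spread between cells. The counts also moved with the scale, to 288 higher and 318 lower at a pseudocount of 0.1 and to 16 and 27 at a pseudocount of 10.

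**Figure D2:**
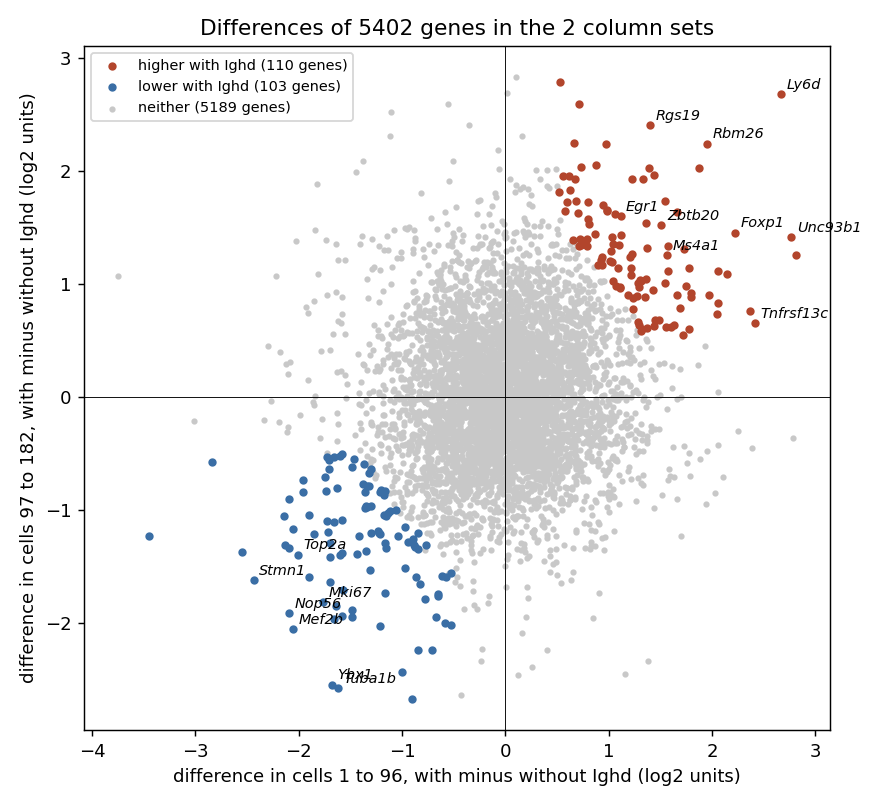
Difference in mean log2(value + 1), cells with Ighd minus cells without, for 5402 genes within cells 1 to 96 (x axis) and within cells 97 to 182 (y axis), in log2 units. Red marks the 110 genes higher with Ighd and blue the 103 lower by the size rule, Ly6d stands farthest to the upper right at 2.67 and 2.68, and grey marks the rest.

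Surface and signalling genes of B cells were among the genes higher with Ighd. Ly6d, a lipid-anchored surface protein used to mark early commitment to the B lineage (chr15:74762056-74763620), led the ranking. Its value had a lowest of 0, a median of 21.1 and a highest of 9011 in cells with Ighd, against 0, 5.36 and 7083 in cells without. The mean log2 level was 6.27 ± 5.13 in the 37 cells with Ighd and 3.57 ± 3.92 in the 86 without (SD over cells), a difference of 2.69, and it was 2.67 and 2.68 within the sets. Ly6d reached 1 in 78.4% of cells with Ighd (61.8 to 90.2) and in 60.5% of cells without (49.3 to 70.8). High values occurred on both sides, and their share was larger with Ighd. Most cells with the highest Ly6d values, on either side, had low values of Mki67 and Mef2b, described below. The differences of these genes thus rest partly on the same cells and are not separate observations.

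Foxp1, a transcription factor needed for B cell development, had a lowest of 0, a median of 21.7 and a highest of 978 in cells with Ighd, against 0, 2.12 and 3439 in cells without. Its mean log2 level was 4.64 ± 3.03 with Ighd and 2.78 ± 2.67 without, a difference of 1.86 (2.22 and 1.45 within the sets), and it reached 1 in 86.5% and 65.1% of cells. The single highest value thus belonged to a cell without Ighd, while most cells of that side stood low. Ms4a1, which encodes the B cell surface protein CD20, had a lowest of 7.44, a median of 442 and a highest of 21037 with Ighd, against 0, 139 and 5869 without. It was found at 1 or more in nearly all cells of both sides, so its difference of 1.50 (1.57 and 1.25) was one of level. Tnfrsf13c, the receptor for the survival factor BAFF, had a median of 24.0 with Ighd and 4.96 without and a difference of 1.70 (2.41 and 0.65).

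Other leading genes higher with Ighd act in the nucleus, in endosomes and in signalling. Unc93b1, which carries nucleic acid-sensing Toll-like receptors to endosomes, had a difference of 2.17 (2.77 and 1.41) and reached 1 in 83.8% of cells with Ighd and 59.3% without. Rbm26, an RNA-binding protein, had 2.08 (1.95 and 2.24) and Shisa5, a membrane protein linked to p53-dependent cell death, 1.95 (1.87 and 2.02). Rgs19, which shuts off G protein signals, had 1.85 (1.40 and 2.40), and Map3k1, a kinase at the head of a MAP kinase cascade, 1.64 (1.44 and 1.97). Pdcd4, an inhibitor of translation, had 1.64, Sp100, a nuclear body protein, 1.63, and Zbtb20, a zinc finger transcription factor of the B lineage, 1.55. The list of 12 ended with Sdc4, a heparan sulfate proteoglycan, at 1.69 and Gm2a, a lysosomal lipid-binding protein, at 1.43. Sdc4 reached 1 in like shares of cells, 59.5% with Ighd and 57.0% without, so its difference lay in the level of the cells that had it.

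Ranked by the smaller of the 2 within-set differences, Mef2b came first of the genes lower with Ighd, while over all cells Ybx1 (-2.06) and Stmn1 (-2.03) were lower still and the lowest compared gene had -2.40. It is a transcription factor that drives Bcl6 in germinal centre B cells. Its value had a lowest of 0, a median of 4.02 and a highest of 900 in cells with Ighd, against 0, 65.7 and 3358 in cells without. The mean log2 level was 3.24 ± 3.12 with Ighd and 5.25 ± 3.72 without, a difference of -2.01 (-2.05 and -2.06 within the sets). It reached 1 in 67.6% of cells with Ighd and 73.3% without, so the sides parted mainly among cells at high values. Bcl6 itself, the repressor at the head of the germinal centre program, had medians of 2.47 with Ighd and 1.38 without and a difference of 0.17 (0.30 and 0.01).

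Mki67, the proliferation marker Ki-67 (chr7:135689784-135716361), had a lowest of 0.232, a median of 2.68 and a highest of 694 in cells with Ighd, against 0.163, 33.2 and 2455 in cells without. Its difference was -1.79 (-1.76 and -1.82), from mean log2 levels of 3.42 ± 2.74 with Ighd and 5.22 ± 3.03 without. Top2a, which untangles replicated DNA, had medians of 2.90 with Ighd and 63.8 without and a difference of -1.73 (-2.01 and -1.39). Mki67 reached 1 in 78.4% of cells with Ighd and 89.5% without, and Top2a in 73.0% and 88.4%, so both detection and high values were more frequent without Ighd. Stmn1, which destabilises microtubules in dividing cells, had a difference of -2.03 (-2.43 and -1.62), reaching 1 in 27.0% of cells with Ighd and 51.2% without. Tuba1b, an alpha-tubulin, had -2.01 (-1.62 and -2.58), and Hist1h2bj, a histone H2B gene, -1.60. Tubulins and histones have near-identical copies among which the authors' mapping could split reads, so single members are uncertain.

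The remaining leading genes lower with Ighd belong to protein, RNA and energy metabolism. Ybx1, a cold-shock protein that binds mRNA, had medians of 2.44 with Ighd and 37.2 without and a difference of -2.06 (-1.68 and -2.55). Nop56, a core protein of the particles that methylate ribosomal RNA, had -1.98 (-2.09 and -1.91) and reached 1 in 40.5% of cells with Ighd and 61.6% without. Atp5d and Atp5e, subunits of the mitochondrial ATP synthase, had -1.69 and -1.67, Dbi, which binds acyl-CoA esters, -1.73, and Pomp, which assembles the proteasome, -1.61. The gene listed as 2810417H13Rik had -1.75 (-1.90 and -1.59). Pomp depended on where Ighd was split, at 0.03 with the line drawn at the Ighd floor. Dbi and Atp5e also varied with the Ighd level. Their mean log2 levels were 3.63 and 4.13 at the floor and 3.81 and 3.94 at Ighd values of 1 to below 5. At 5 or more they were 1.23 and 2.00.

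**Figure D3:**
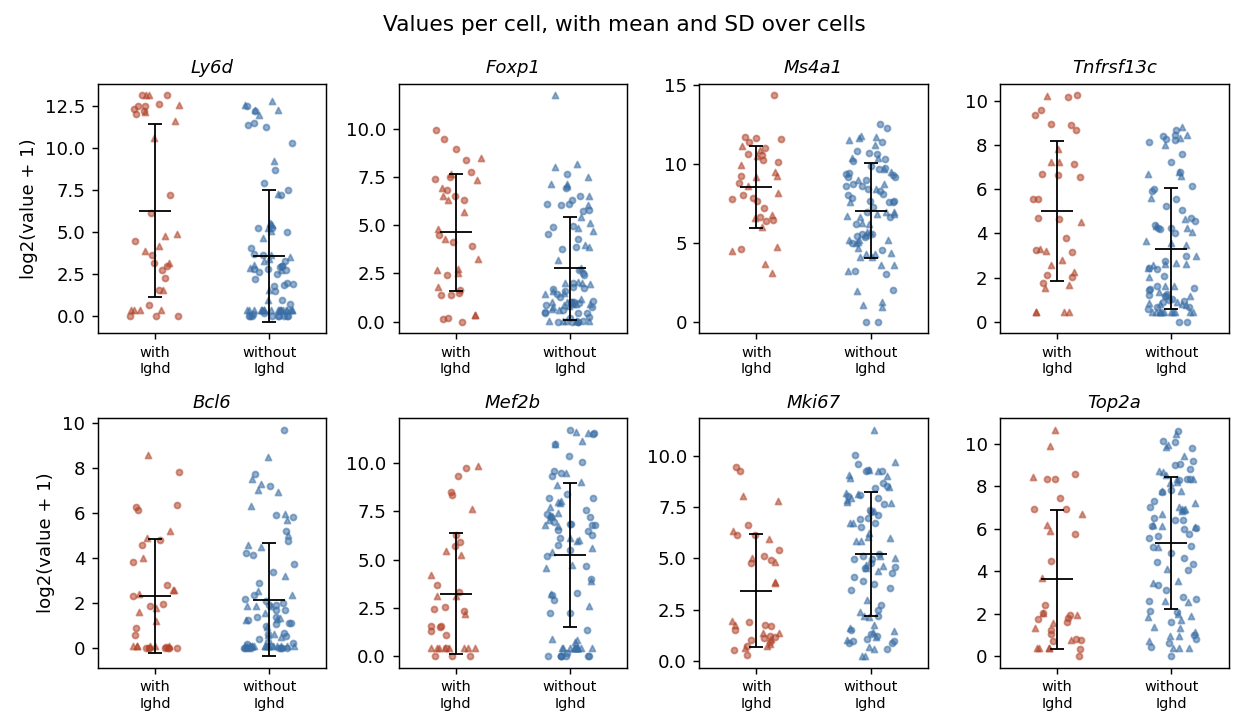
Values of 8 genes in each IgM cell as log2(value + 1), with cells with Ighd in red at the left and cells without Ighd in blue at the right of each panel, circles for cells 1 to 96 and triangles for cells 97 to 182. Bars give the mean and SD over cells, and every panel shows overlapping ranges, with the mean of Ly6d at 6.27 with Ighd and 3.57 without and that of Mki67 at 3.42 and 5.22.

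Genes were also grouped in 23 lists, each described by the number of its compared members past the rule and by its median difference, against 2.04% higher, 1.91% lower and a median of -0.01 for all genes compared. Factors known or proposed to act in IgD production did not stand apart by count. Of 13 compared, 0 were higher and 0 lower, 10 had a positive difference, and the median was 0.23 (0.22 and 0.20 within the sets). The median was -0.17 when Ighd had to reach 5. Ebf1, an early B lineage transcription factor, was highest at 0.89 (0.81 and 0.99), and Srsf4, a splicing factor, lowest at -0.54. Zfp318 was found too rarely to be compared, reaching 1 in 5 of 37 cells with Ighd (13.5%) and 7 of 86 without (8.14%), and its highest values were 38.8 with Ighd and 140 without. Hnrnpll, a splicing regulator of immunoglobulin transcripts in mice, reached 1 in 0 cells of either side.

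Naive and follicular B cell genes had a median difference of 0.46, with 12 of 15 compared members positive, but only 0.07 within cells 97 to 182 against 0.63 within cells 1 to 96. Foxp1 alone passed the rule. Il4ra, the receptor chain for interleukin 4, had 0.84 (0.87 and 0.77) and S1pr1, which guides lymphocytes out of tissues, 0.81 (0.65 and 0.98), while Fcer2a, which encodes CD23, had 0.36 (0.25 and 0.40). Klf2, Bach2 and Hhex, transcription factors of resting or memory B cells, had 0.54, 0.58 and 0.55 over all cells, and -0.14, 0.00 and -0.37 within cells 97 to 182. The homing receptor Ccr7 and the receptor Gpr183 were found in too few cells to be compared. The mean of the list per cell was 2.13 ± 0.85 with Ighd and 1.69 ± 0.70 without, with overlapping ranges of 0.85 to 4.07 and 0.24 to 3.91.

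Germinal centre B cell genes split. Of 21 compared, 2 were higher (Tnfrsf13c and Ms4a1, which B cells express outside the germinal centre as well) and 2 were lower (Mef2b, and Ezh2, the histone methyltransferase that silences genes in dividing germinal centre B cells, at -1.25 with -1.62 and -0.81 within the sets). The median was -0.14 with 14 members negative. Cells with at least 2 genes of the T cell list (Lck aside) or of the myeloid list at 1 or more were then left out. Over the 32 cells with Ighd and 80 without that remained, the median was 0.03. Irf8 and Spib, transcription factors of B cells, had 0.36 and 0.66 over all cells with opposite signs within the sets (1.43 and -0.98 for Irf8, 1.94 and -0.95 for Spib). S1pr2, which confines cells to the germinal centre, had -0.31, Rgs13 -0.28 and Fas -0.14, the last with opposite signs within the sets (0.14 and -0.59). None of these passed the rule.

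Of 26 genes of the B cell receptor and its signalling, 3 were higher with Ighd (11.5%) and 0 lower, with 20 positive and a median of 0.30 (0.23 and 0.39). Among commonly found genes the share higher was 6.56%. For the receptor list the number higher was 0 at a pseudocount of 10 and with division lists and set taken out. It was 1 with Ighd above its floor (median 0.10), at a heavy chain sum of at least 100 and without cells with T cell or myeloid genes. Those past the rule were Prkcb, the kinase that links the receptor to NF-κB, at 1.17 (1.31 and 1.02), and the inhibitory surface receptors Siglecg at 1.14 (0.63 and 1.83) and Cd72 at 1.14 (1.56 and 0.62). The receptor's signalling chains Cd79a and Cd79b had 0.62 (0.32 and 0.91) and 0.78 (0.21 and 1.44). The kinase Btk had 0.90 (1.35 and 0.31) and Syk -0.62 (-0.38 and -0.89), while Lyn had 0.78 with opposite signs within the sets (1.77 and -0.50). Of the inhibitors, Cd22 had -0.49 and Fcgr2b -0.48. The mean of the list per cell was 3.82 ± 0.86 with Ighd and 3.47 ± 0.78 without.

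MHC class II genes, which present antigen to helper T cells, had a median of 0.60 (0.43 and 0.59) with 8 of 11 positive. This median was 0.23 with Ighd at 5 or more. It was 0.20, with 0 genes past the rule, without cells lacking every germinal centre marker, an alternative chosen after seeing the data. All cells so left out were without Ighd. Without cells with T cell or myeloid genes it was 0.44, with 4 genes higher. Over all IgM cells H2-DMb2 alone was higher, at 1.06 (1.24 and 0.77), followed by H2-DMb1 at 0.97, both chains of the molecule that loads peptides. H2-Ob, a chain of its inhibitor, had -0.44 with opposite signs within the sets (-1.15 and 0.42). Light zone genes, active where germinal centre B cells take up antigen, had 17 of 20 positive and a median of 0.27 (0.43 and 0.04), and Egr1, an immediate early transcription factor, passed at 1.33 (1.11 and 1.60). Dark zone genes, active where cells divide, had 11 of 16 negative and a median of -0.49, at -0.85 within cells 1 to 96 and 0.00 within cells 97 to 182. The dark zone members lower with Ighd were Mki67 and Ccnb2 (-1.18), a mitotic cyclin, both of which also stand in the G2/M list. Cxcr4, the chemokine receptor that holds cells in the dark zone, had 0.80 (0.97 and 0.65).

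**Figure D4:**
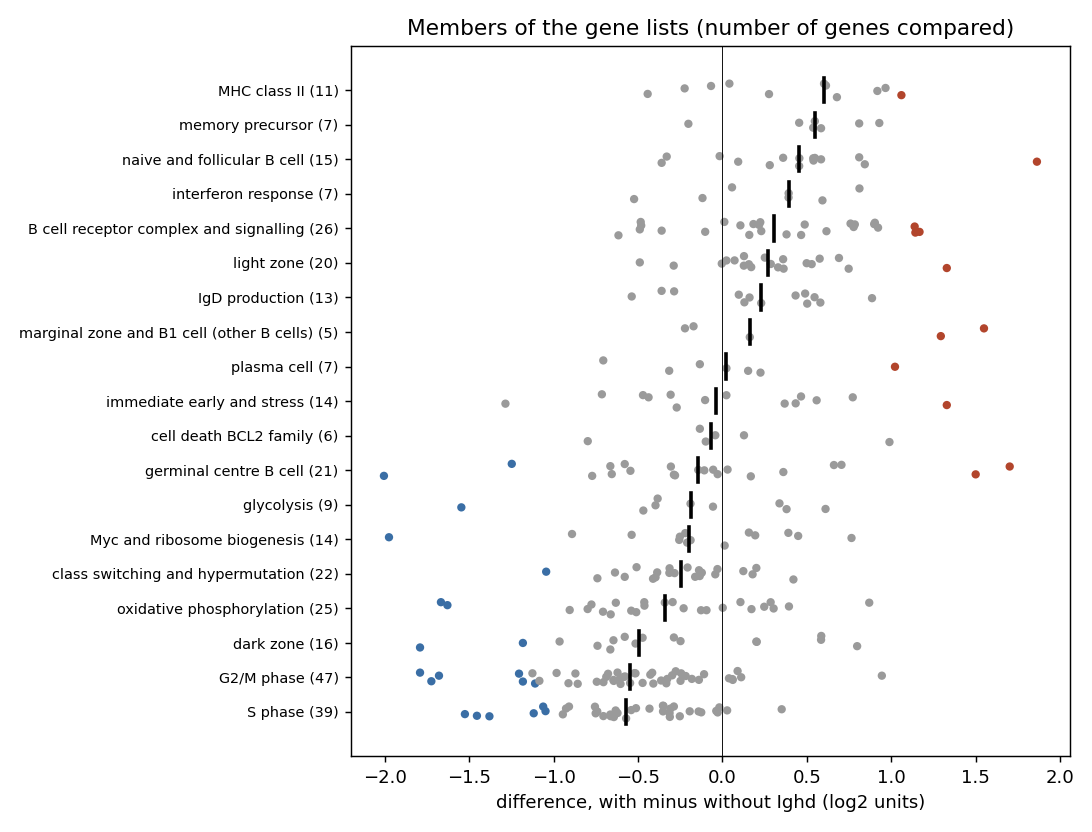
Difference in mean log2(value + 1), cells with Ighd minus cells without, for each compared member of the lists with at least 5 such members, in log2 units along the x axis, with the number of members in brackets. Black bars are list medians, red points are members higher with Ighd and blue points members lower by the size rule, and the median lies lowest for S phase (-0.57) and G2/M phase (-0.55).

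By the size rule, more genes were lower with Ighd in the division lists than in any other list compared, but these lists are also the largest. By share, the dark zone (12.5%) and glycolysis (11.1%) lists came close to the G2/M list. The share was 7.18% of commonly found genes. Of 39 S phase genes, 6 were lower (15.4%) and 0 higher, and 37 had a negative difference, with a median of -0.57 (-0.54 and -0.48). Of 47 G2/M genes, 6 were lower (12.8%) and 0 higher, 41 were negative, and the median was -0.55 (-0.78 and -0.33). The S phase genes at the low end were Uhrf1, which keeps DNA methylation through replication, at -1.53 (-1.69 and -1.41) and Mcm5, part of the replicative helicase, at -1.46 (-1.72 and -1.19). At the high end stood Pola1, a DNA polymerase, at 0.35. In the G2/M list Mki67 and Top2a were lowest and Lbr, a nuclear envelope protein, was highest at 0.94.

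With the line drawn at the Ighd floor, 1 S phase and 0 G2/M genes were lower, with medians of -0.06 and -0.15. At a pseudocount of 10 the counts were 0 and 3, and with differences divided by their SD they were 0 and 2.

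The list means were also lower per cell. The S phase mean was 1.06 ± 0.76 in cells with Ighd and 1.62 ± 0.98 in cells without, and 28 of 37 cells with Ighd lay below the median of those without. For G2/M the means were 1.33 ± 1.06 and 1.89 ± 1.17, and 27 of 37 lay below. Most cells with the highest Ly6d values, on either side, were low in both list means. The ranges overlapped nearly fully, at 0.30 to 4.09 with Ighd and 0.31 to 4.81 without for G2/M, so cells in division occurred on both sides. Mki67 and Top2a were both at 1 or more in 22 of 37 cells with Ighd (59.5%, 42.1 to 75.2) and in 70 of 86 without (81.4%, 71.6 to 89.0), with 12 of 21 and 36 of 44 in cells 1 to 96 and 10 of 16 and 34 of 42 in cells 97 to 182. Neither gene reached 1 in 3 of 37 and 3 of 86 cells. The number of genes above floor differed in the same direction within each set, with medians of 2669 with Ighd and 2712 without in cells 1 to 96, and 2030 and 2188.5 in cells 97 to 182. With depth and set taken out by a linear fit, the list medians were -0.46 for S phase and -0.37 for G2/M. The counts past the rule were then smaller, with 4 S phase genes lower and 0 higher, and 2 G2/M genes lower and 1 higher.

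Division genes outside the rule for naming, picked after their values were seen, gave the same direction. Rrm2, which supplies DNA building blocks, had -1.38 (-1.66 and -1.11), the helicase subunit Mcm4 -1.05 and the maintenance DNA methyltransferase Dnmt1 -1.23 (-1.15 and -1.34). Cdkn1b, the cell cycle inhibitor p27, was higher with Ighd at 1.05 (0.93 and 1.23), as was Txnip, a thioredoxin-binding protein, at 1.16 (0.68 and 1.73). Being picked for their values, these genes add examples and no support.

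The promoters of the genes past the rule were searched for motifs known from cell cycle genes, over the 250 bases before each RefSeq start in GRCm38.p6 and on both strands. Of the 103 genes lower with Ighd 77 matched a promoter entry, and of the 110 higher 81 did. The E2F-type words TTTCCCGC, TTTGGCGC, TTTCGCGC or TTTGCCGC stood in 10 of 77 lower genes (13.0%) and 2 of 81 higher genes (2.47%), against 213 of 4142 genes compared (5.14%) and 1.86% of all 32851 promoters. CCAAT stood in 55.8% of the lower and 53.1% of the higher genes, against 41.4% of genes compared and 33.8% of all promoters. TTTGAA, the core of the cell cycle homology element, stood in 14.3% and 12.3%, against 13.1% and 16.0%. A gene counted as a match if any of its promoters matched, while the share of all promoters is per promoter, so the 2 are unlike measures. Among 70 compared S and G2/M genes with a promoter entry, the shares were 14.3% for the E2F-type words, 74.3% for CCAAT and 27.1% for TTTGAA. These matches are letters in a window and no record of binding.

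The 150 bases before the start are shown for 3 of the genes lower with Ighd that carry these words, and for Foxp1 as a gene higher with Ighd, with its most upstream of 3 listed starts. Capitals mark matches to the searched words on either strand, and each line reads 5′ to 3′ on the strand of the gene. The windows are chr7:135716380-135716529 (minus) for Mki67, chr11:99024190-99024339 (minus) for Top2a, chr8:75109359-75109508 (plus) for Mcm5 and chr6:99520994-99521143 (minus) for Foxp1.
Mki67: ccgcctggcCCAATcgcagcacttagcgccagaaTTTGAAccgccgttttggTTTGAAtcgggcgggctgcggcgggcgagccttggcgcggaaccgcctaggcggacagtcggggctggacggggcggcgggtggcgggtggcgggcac
Top2a: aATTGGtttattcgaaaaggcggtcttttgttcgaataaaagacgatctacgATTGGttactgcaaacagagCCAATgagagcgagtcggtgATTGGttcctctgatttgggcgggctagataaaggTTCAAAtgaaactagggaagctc
Mcm5: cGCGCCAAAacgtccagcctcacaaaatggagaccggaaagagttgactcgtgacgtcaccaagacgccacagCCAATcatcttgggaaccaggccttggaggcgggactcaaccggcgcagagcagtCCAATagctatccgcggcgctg
Foxp1: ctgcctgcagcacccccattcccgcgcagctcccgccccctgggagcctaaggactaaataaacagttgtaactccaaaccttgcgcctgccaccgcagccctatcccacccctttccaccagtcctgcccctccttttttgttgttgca
The Mcm5 window holds an E2F-type word on the opposite strand and the Mki67 window holds TTTGAA, while none of the words occurs in the Foxp1 window shown. Another Foxp1 start, with the window chr6:99028299-99028448, carries CCAAT on the opposite strand.

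Metabolic lists had shares of lower genes from 7.14% to 11.1% (glycolysis), against 1.91% of all genes compared and 7.18% of commonly found genes. Of 25 oxidative phosphorylation genes, 2 were lower (8.00%), Atp5e and Cox4i1, a subunit of cytochrome c oxidase, the second at -1.63 (-0.90 and -2.67), and the median was -0.34 with 17 negative. This median was 0.03 once depth and set were taken out. Of 14 genes for Myc and ribosome biogenesis Nop56 alone was lower (7.14%), with 6 positive, 8 negative and a median of -0.20 (-0.00 and -0.39 within the sets), and of 9 glycolysis genes Tpi1 alone, a triosephosphate isomerase, at -1.55. Genes for class switching and hypermutation had 18 of 22 negative and a median of -0.25 (-0.37 and -0.09), with Rif1, a protector of DNA ends, past the rule at -1.05.

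The remaining lists held few compared members. Of 5 genes of marginal zone and B1 cells, other B cells of the spleen and body cavities, 2 were higher, Zbtb20 and Notch2, the receptor that marginal zone B cells need, at 1.29 (1.54 and 1.00). Of 7 plasma cell genes Xbp1, a secretory regulator, was higher at 1.02 (1.32 and 0.60), while Igj, the joining chain of IgM and IgA, had -0.71. Memory precursor genes had 6 of 7 positive and a median of 0.55, with 0.65 within cells 1 to 96 and 0.00 within cells 97 to 182, and 0 past the rule. Immediate early and stress genes had a median of -0.04 over 14 with Egr1 alone past the rule. Interferon response genes (7 compared, median 0.39) and the BCL2 family (6 compared, median -0.07) had 0 past the rule. Of the T cell, myeloid and other non-B lists, Lck, Cst3 and Pecam1 alone were compared, at -0.42, -0.64 and 0.35. Lck reached 1 in 59.5% of cells with Ighd and 54.7% without, and Cst3, whose sign turned between the sets (-1.36 and 0.28), in 29.7% and 38.4%. Their part in the results was not tested. The 5 light chain constant genes were not analysed here.

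Values across 4 levels of Ighd are given as a description. The levels were the floor (61 cells), above the floor and below 1 (25), 1 to below 5 (13) and 5 or more (24). From low to high Ighd, mean log2 levels were 3.77, 3.11, 5.86 and 6.49 for Ly6d and 2.73, 2.90, 3.89 and 5.05 for Foxp1. They were 5.12, 5.46, 3.95 and 3.14 for Mki67 and 5.34, 5.03, 3.23 and 3.25 for Mef2b. These 4 genes were picked for their difference at an Ighd value of 1, so a gap there follows from the choice. It does not show that differences sat at this threshold. Foxp1 also differed between the levels above 1, at 3.89 and 5.05. SDs over cells of the 4 genes lay between 2.52 and 5.31. Tnfrsf13c did not climb throughout, with 3.22, 3.54, 5.92 and 4.53, and Bcl6 stayed within 2.23, 1.97, 2.21 and 2.38. The S phase mean was 1.50, 1.94, 1.20 and 0.99 and the G2/M mean 1.80, 2.12, 1.36 and 1.32. The level above the floor and below 1 had the highest median number of genes above floor, 2912, against 2323, 2591 and 2301 at the floor, at 1 to below 5 and at 5 or more.

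**Figure D5:**
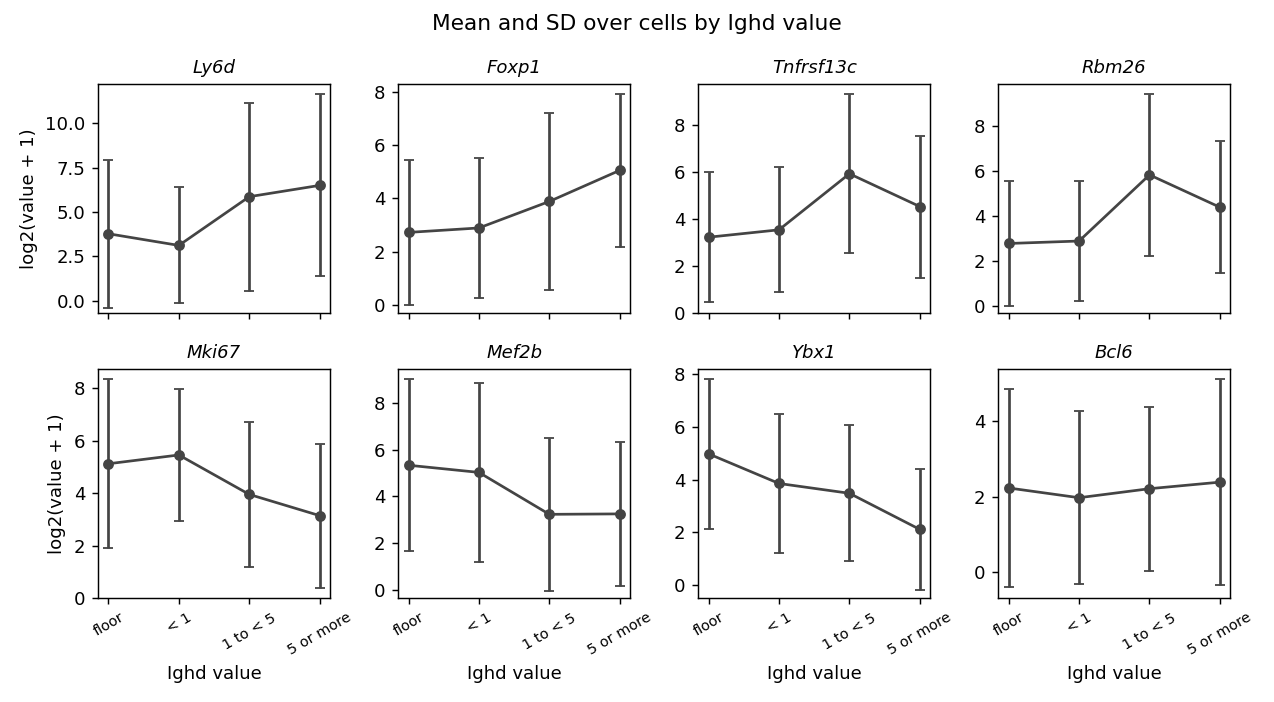
Mean and SD over cells of log2(value + 1) for 8 genes (y axes, which differ between panels) at 4 levels of Ighd from low to high (x axis), with 61, 25, 13 and 24 cells. Ly6d and Foxp1 are higher and Mki67 and Mef2b lower at the levels from 1 up, and Bcl6 stays between 1.97 and 2.38.

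The genes past the rule were also compared after the S phase and G2/M list means and the column set had been taken out of each gene by a linear fit, an alternative chosen after seeing the data. Then 52 genes were higher and 46 lower, of which 40 and 34 were among the 110 and 103. Mki67 had -0.57 and Stmn1 -0.59, while Mef2b had -1.81, Nop56 -1.69 and Ybx1 -1.57. Mki67 is a member of the G2/M list, so its own values were part of the mean taken out. Whether division explains any of these differences was not tested. On the higher side, Ly6d had 1.07, Foxp1 1.11, Unc93b1 1.45, Rgs19 1.62 and Zbtb20 1.46. The median of the B cell receptor list was 0.11 and that of the MHC class II list 0.19.

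A heavy chain variable gene was dominant, with over 50% of the summed variable gene values, in 15 of 37 cells with Ighd and 39 of 86 without. Ighv1-72, the variable gene best known from responses to NP in this strain, was that gene in 8 of 15 cells with Ighd (53.3%, 26.6 to 78.7) and 16 of 39 without (41.0%, 25.6 to 57.9). These intervals overlap widely. The next most frequent were Ighv7-3 with 2 cells with Ighd, and Ighv1-22, Ighv1-55 and Ighv1-64 with 2 cells each without. Variable genes resemble each other closely, so the mapping could split their reads.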

How the data were processed

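Per the labels' protocols, the cells went through Fluidigm C1 chips, SMARTer reverse transcription and Nextera XT library preparation. The authors deposited a table of normalized signal per gene and cell, not on a log scale. Tools in the submitters' processing notes are Cuffdiff (no version), Cufflinks 2.2 and TopHat2 2.0, with mm10 as the build. How the values were normalized, and on which annotation, is not given in the sources used here. Values were neither counts nor TPM, so no count model was used, and depth in reads is unknown. The number of genes at 1 or more was nearly fixed within cells 1 to 96, at 1878 to 1946 in IgM cells.

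The table's 17035 rows gave 17034 symbols, of which 20 had become dates and are not named. Means and SDs over cells used log2(value + 1). Genes at 1 or more in at least 10% of IgM cells were compared, without the 8 heavy chain constant genes of the rule. No test was run, since all cells were 1 biological sample, and no doublet caller was used.

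Named genes were the members of the lists for IgD production, naive, germinal centre and receptor genes, the 2 highest and 2 lowest members of each other list, and the 12 genes per direction with the largest value of the smaller within-set difference. Cells, lists and rules were chosen with earlier results of these data known. Alternatives covered the pseudocount, filters, Ighd and Ighm thresholds, depth, sets and cells left out. The procedure was run on shuffled data with an added shift larger than any difference over all IgM cells reported here. That run does not show how well differences of the reported size are found. Tools were Python 3.11.15, NumPy 2.4.6, pandas 2.3.3, SciPy 1.17.1 and matplotlib 3.10.9.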

Additional observations from a re-analysis of the deposited data

How the results depend on the processing

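The counts of genes higher and lower with Ighd, 110 and 103, moved most with the scale, to 288 and 318 at a pseudocount of 0.1, to 16 and 27 at a pseudocount of 10, and to 63 and 26 when each difference was divided by its SD with the thresholds set in SD units. Drawing the line elsewhere gave 155 lower genes and a share of 19.5% with Ighd at 5 or more, 63 and 57 genes and a share of 50.4% with Ighd above its floor, and 197 and 171 genes for Ighd at 5 or more against the floor. Alternatives chosen after seeing the data gave 262 and 289 genes in cells 1 to 96 alone, 382 and 289 in cells 97 to 182 alone, where the other set sets no condition, and 52 and 46 with division lists and set taken out. Within 1.5 times the counts lay no filter on detection (113 and 103), a filter at 25% (92 and 94), dominance over 80% (130 and 117), a heavy chain sum of at least 100 (112 and 110), the mean of the sets (108 and 105), depth and set taken out (110 and 85), and leaving out cells with T cell or myeloid genes (108 and 108, of which 74 and 77 were among the 110 and 103) or cells with no germinal centre marker (137 and 126). Of 335 planned values for the 24 leading genes, 307 kept their side of the rule, 27 kept direction only, and 1 turned, Pomp at 0.0280 with Ighd above its floor. List medians kept their sign in 136 of 140 planned values but not their size. With Ighd above its floor the S phase median was -0.06 (1 gene lower), G2/M -0.15 (0 lower) and oxidative phosphorylation -0.04, and at a heavy chain sum of at least 100 the MHC class II median was 0.23. At a pseudocount of 10 and in SD units, 0 S phase and 0 B cell receptor genes passed. No paired analysis was possible because all cells belong to 1 labelled group. Depth limits what a low value means, since a gene at its floor may have been missed.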
